A study of Homo sapiens with 24 samples.

Results

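Circular RNAs (circRNAs) whose back-splice junction joins one exon to another were followed by the length of genome that they span. Of the 394 circRNAs in the count tables, 368 have both ends in exons and lie outside the mitochondrial genome, and these 368 circRNAs from 294 host genes are described here. The span was the distance from the start to the end of the junction, both ends included, and the circRNAs were sorted into 55 under 1 kb, 107 of 1 to 5 kb, 115 of 5 to 20 kb and 91 over 20 kb. The other 26 circRNAs, which are mitochondrial (5) or do not join 2 exons, were left out.

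The RNA came from U2OS, a human osteosarcoma cell line. Control cells (Ctrl) had 0.12% DMSO for 2 h, and treated cells had sodium arsenite (NaAsO2, 500 µM, 60 min), RK-33 (6 µM, given 1 h ahead), or RK-33 followed by NaAsO2 at those doses (Combo). NaAsO2 is an oxidative stressor that brings on stress granules (SGs), and RK-33 inhibits the ATPase of the RNA helicase DDX3. Each treatment had 3 replicates, and each of the 12 lysates was split by centrifugation into a soluble cytoplasmic fraction and an insoluble one that is enriched for SGs and P-bodies, giving 24 libraries of rRNA-depleted RNA. The methods of the paper state that the sequencing of both fractions was done 3 times for every condition. The replicates are not described as separate cultures in the labels, so p-values measure the spread between these libraries. The insoluble fraction is an enrichment and not a pure preparation of granules, and in such bulk libraries less of one RNA cannot be told apart from more of the others.

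A circRNA forms when the spliceosome joins the 5′ splice site of an exon to the 3′ splice site of the same or of an earlier exon, which closes the exons into a ring. With no free ends, the ring escapes the exonucleases that degrade linear RNA, and it usually outlives the mRNA of the same gene. Pairing of inverted repeats in the flanking introns brings the splice sites together, RNA-binding proteins such as QKI help, and the editing enzyme ADAR and the helicase DHX9, which disrupt such pairs, oppose it. Export from the nucleus has been linked to the length of the ring, through the paralogous helicases DDX39A and DDX39B, which makes length a property of interest for a cytoplasmic location.

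The sequences of the most abundant circRNA of each span class show what the counted reads cross. Each line gives 30 bases of reference sequence (GRCh38, strand of the gene), with the last 15 bases before the 5′ splice site in lower case and the first 15 bases after the 3′ splice site in capitals. The ring of CDYL, a chromatin reader gene, is a single exon at chr6:4891713-4892379 (+) of 667 bases. The ring of LINC00632 lies at chrX:140783175-140784659 (+), spans 1485 bases and is the interval known as CDR1as, a circRNA with many binding sites for a microRNA. The ring of RHOBTB3, a gene for an atypical GTPase, lies at chr5:95755396-95763620 (+), spans 8225 bases and holds 2 exons. The ring of LRBA, a gene for a vesicle trafficking protein, lies at chr4:150282450-150325898 (-), spans 43449 bases and holds 7 exons.
circCDYL: ctgttaacgggaaagGTTGAAAGGATTGTT
circLINC00632: gtctgcaatatccagGGTTTCCGATGGCAC
circRHOBTB3: aaaacaccaggaaagAAAAAATGCCTGTCT
circLRBA: gatgataacataagaGCTGTTGAAGCTCAA

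The microRNA in question is miR-7, and its mature sequence from RefSeq is given with the seed, bases 2 to 8, in capitals. The DNA letters that pair with this seed, GTCTTCC on the strand of the gene, occur 67 times in the span of circLINC00632, which is 45.1 sites per kb. At least 1 such match lies in the whole genomic span of 146 of the 368 circRNAs (39.7%), and the next densest, circKIF2C, has 1 match or 1.71 per kb.
hsa-miR-7-5p: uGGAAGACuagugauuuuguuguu

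Another pair of sequences shows 2 junctions of the same host gene that differ by a few bases. Windows of 30 bases around the 3′ splice site are given for 2 circRNAs of MPP6, a membrane scaffold gene, which share their end at chr7:24668660 (+) and start 3 bases apart at a tandem AG, with the AG of each in capitals.
circMPP6_44998: ttgcttttatctcAGcagcaatgcagcaag
circMPP6_44995: cttttatctcagcAGcaatgcagcaagtct

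The libraries held 10968059 to 19799530 exon plus intron counts. Back-splice counts of the 368 circRNAs summed to 696 to 1412 per soluble library (median 957) and to 110 to 478 per insoluble library (median 352.5), and linear counts at the same sites to 23581 to 46856. Insoluble replicate 3 of NaAsO2, with 110 back-splice counts, stood apart from the other 23 libraries, and results that it moves are also given without its lysate. Intervals and floors cover counting error only.

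The span of the 368 circRNAs ran from 201 bases (circAHNAK) to 86922 bases (circKLHL29), with a median of 7233.5. The bins held 2491, 4976, 4927 and 3779 back-splice counts from the shortest to the longest, which is 15.4%, 30.8%, 30.5% and 23.4% of the 16173 counts. A typical circRNA was counted rarely in every bin, with a median of 27, 32, 29 and 27 counts over all 24 libraries and a range over all circRNAs of 12 to 568. A few rings stood out: circCDYL gave 373 counts (14.97% of the back-splice counts under 1 kb), circLINC00632 544 (10.9% of 1 to 5 kb), circRHOBTB3 210 (4.26% of 5 to 20 kb) and circLRBA 568 (15.03% of those over 20 kb). At the bin borders, circAPBA2 spans 991 bases and circZNF827 1050, circCCDC134_4948 4948 and circAAGAB 5007, and circCEP192_19786 19786 and circTRIO 20215.

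In the longer bins the genomic span was mostly intron. For 342 circRNAs, both ends lay on exon borders of a single GENCODE transcript model, and of these, 38 of 49 under 1 kb (77.6%), 31 of 99 of 1 to 5 kb (31.3%), 1 of 110 of 5 to 20 kb (0.909%) and 0 of 84 over 20 kb were single exons. The median number of exons was 1, 2, 4 and 5, while the median length of the exons joined was 480, 696, 550 and 706 bases. The longest bin thus held rings whose exons sum to a length near that of the 1 to 5 kb bin, if no intron is kept in the ring. The ring started at the second exon of the model in 53.1%, 45.5%, 36.4% and 48.8% of the circRNAs. The median upstream intron measured 24727, 22970, 11626 and 29083 bases, and the median GC content of the span was 52.6%, 45.1%, 39.2% and 37.9%. Inverted matches of at least 20 bases between the 2000 bases upstream and downstream of the ring were found for 30.9%, 25.2% and 27.8% of the circRNAs in the 3 shorter bins and for 7.69% of those over 20 kb. Direct matches of that length, which cannot pair, were found for 32.7%, 19.6%, 19.1% and 10.99%.

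**Figure D1:**
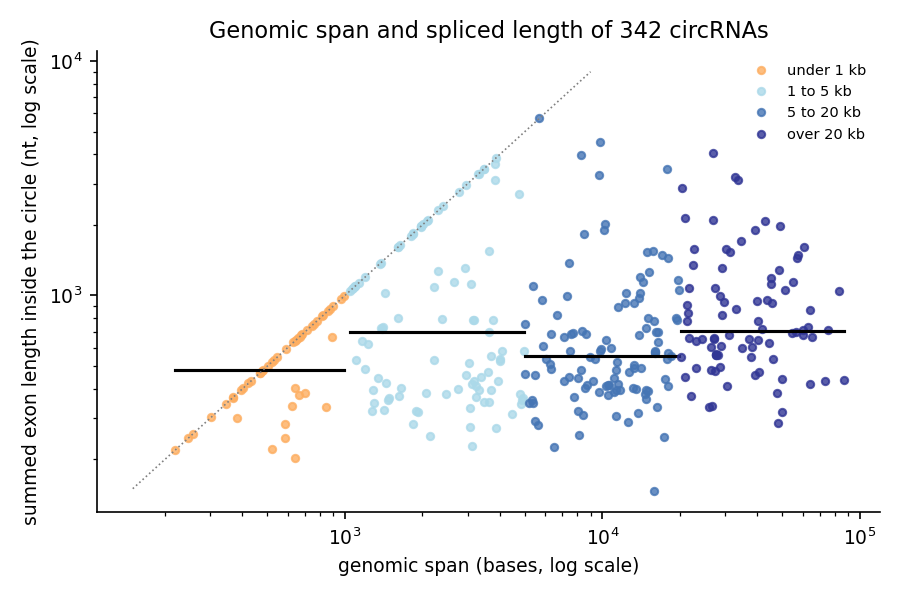
Genomic span (x axis, bases, log scale) against the summed length of the annotated exons inside it (y axis, bases, log scale) for the 342 circRNAs with both ends on exon borders of one transcript model. Each point is a circRNA, the dotted line marks equal lengths and the black lines are bin medians, which lie at 480, 696, 550 and 706 bases.

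Most of these junctions had the form of splice sites, and a few short ones had ends off the annotated exon borders. The bases next to the ends were AG and GT in 366 of 368 circRNAs. In 9 circRNAs, picked out after their values were seen, neither end lay on an annotated exon border, among them circAHNAK, circAHNAK2, circTHBS1, circAC126323.1 and circHIST1H1E under 1 kb and circCHST12 of 5 to 20 kb. AHNAK and AHNAK2 code for giant scaffold proteins made of repeats, and the sequence at the ends of the span repeated over 62 bases in circAHNAK and 36 in circAHNAK2. The 6 under 1 kb gave 7.35% of the back-splice and 63.2% of the linear counts of their bin. Since they can set the share of a bin, values without them follow the bin results that they move, and that alternative was chosen after seeing the data.

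The first question was whether circRNAs of all spans are scarcer in the granule-enriched fraction. They were: in each of the 4 bins the circular share, that is back-splice counts over back-splice plus linear counts at the same sites, was lower in the insoluble than in the soluble fraction of every one of the 12 lysates. In the soluble fraction the share averaged 1.76% ± 0.224 under 1 kb, 2.91% ± 0.462 of 1 to 5 kb, 3.67% ± 0.589 of 5 to 20 kb and 4.05% ± 0.835 over 20 kb (SD, n = 12). In the insoluble fraction it averaged 0.558% ± 0.128, 1.07% ± 0.216, 0.882% ± 0.238 and 1.21% ± 0.404 (SD, n = 12). No insoluble library reached the lowest soluble library in any bin: the highest insoluble and lowest soluble values were 0.759% and 1.40% under 1 kb, 1.51% and 2.13% of 1 to 5 kb, 1.39% and 2.93% of 5 to 20 kb, and 1.66% and 2.85% over 20 kb. On the log2 scale the insoluble share was lower by a mean difference of -1.68 ± 0.36, -1.45 ± 0.39, -2.08 ± 0.46 and -1.86 ± 0.99 (SD, n = 12). Each has p = 0.000488 in an exact two-sided sign-flip permutation test, which is the smallest that 12 lysates allow, and the adjusted p over the 4 bins is also 0.000488.

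**Figure D2:**
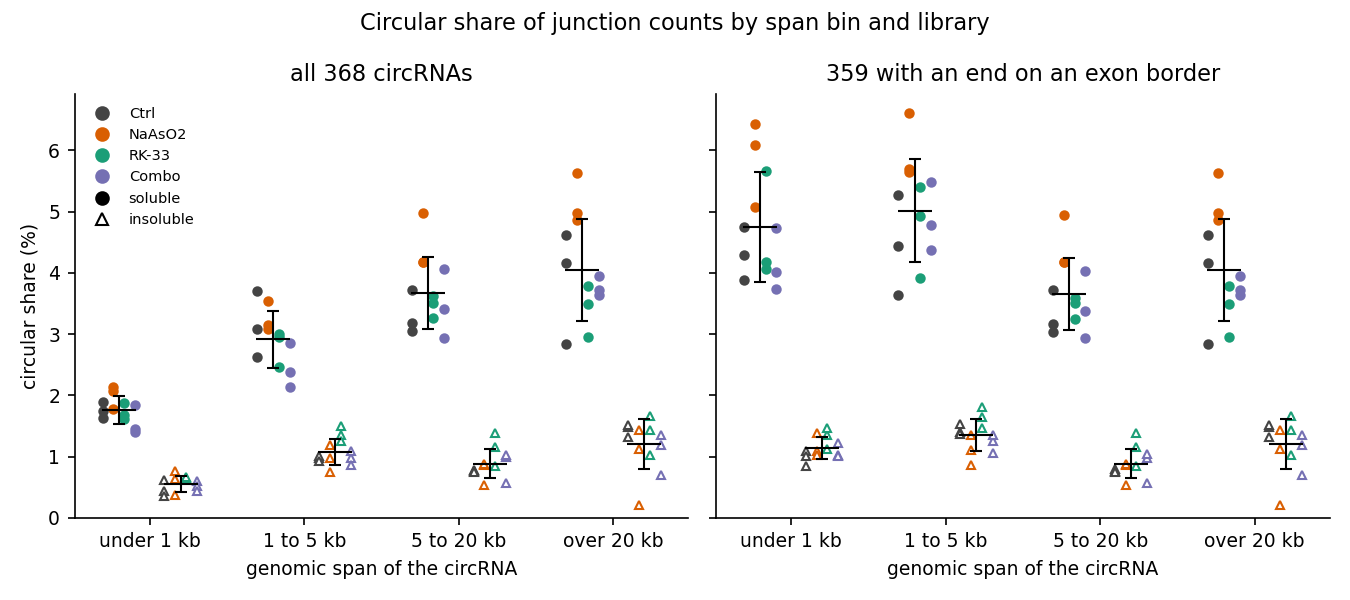
Circular share (y axis, % of back-splice plus linear counts) in each of the 24 libraries by span bin (x axis), for all 368 circRNAs (left) and for the 359 with at least 1 end on an exon border (right). Filled circles are soluble and open triangles insoluble libraries, coloured by treatment, and black bars give the mean ± SD of 12 libraries; the soluble libraries lie above the insoluble ones in all 4 bins.

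Both the circular and the linear counts were then scaled to the depth of the library. Back-splice counts per 1e6 exon plus intron counts (CPM) fell from 10.97 ± 2.21 in the soluble to 3.34 ± 0.757 in the insoluble fraction under 1 kb, from 22.4 ± 4.26 to 6.32 ± 1.37 of 1 to 5 kb, from 23.2 ± 4.65 to 5.39 ± 1.77 of 5 to 20 kb, and from 15.97 ± 3.94 to 5.78 ± 2.09 over 20 kb (SD, n = 12). All 4 differences, of -1.72, -1.83, -2.16 and -1.60 in log2, had the same sign in 12 of 12 lysates (adjusted p = 0.000488, exact sign-flip permutation test). Linear counts at the same sites moved less and in both directions. They fell by 0.36 of 1 to 5 kb in 10 of 12 lysates and rose by 0.30 over 20 kb in 11 of 12 lysates, on the log2 scale (adjusted p = 0.00488 for both, exact permutation test). Under 1 kb and at 5 to 20 kb the linear difference was -0.02 and -0.03 (adjusted p = 0.709, exact permutation test). Scaled to exon counts alone or with TMM, the linear differences under 1 kb and at 5 to 20 kb turned to +0.17 to +0.21. Under 1 kb they then passed the threshold (adjusted p = 0.0137 and 0.0195, exact permutation tests). At 5 to 20 kb they passed with TMM (adjusted p = 0.0195) but not with exon counts alone (adjusted p = 0.0690, exact permutation tests). That of 1 to 5 kb came to -0.15 and -0.13, no longer past the threshold. Without the 9 circRNAs that have no end on an exon border, back-splice CPM averaged 10.7 ± 2.17 and 2.63 ± 0.708 under 1 kb and 22.1 ± 4.21 and 6.26 ± 1.37 of 1 to 5 kb in the soluble and insoluble fraction. Linear CPM then averaged 417 ± 24.8 and 456 ± 55.1 of 1 to 5 kb (SD, n = 12), so its lower insoluble mean was seen only with those 9.

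The second question was whether the size of the fraction difference varied with span, and no order by span was found. Of the 6 pairs of bins, 3 differed in the 12 lysates by exact sign-flip permutation tests: the share was lowered less of 1 to 5 kb than under 1 kb (+0.23 ± 0.21 in log2, 11 of 12 lysates, adjusted p = 0.00879), and more of 5 to 20 kb than under 1 kb (-0.41 ± 0.32, 10 of 12, adjusted p = 0.00732) and than of 1 to 5 kb (-0.64 ± 0.22, 12 of 12, adjusted p = 0.00293). The bin over 20 kb did not differ past the threshold from the one under 1 kb (-0.18 ± 0.81, adjusted p = 0.515), from 1 to 5 kb (-0.41 ± 0.77, adjusted p = 0.0967) or from 5 to 20 kb (+0.23 ± 0.62, adjusted p = 0.277, exact permutation tests). Without NaAsO2 lysate 3 the last of these became +0.38 (adjusted p = 0.00977). Other ways of counting moved the calls in both directions. With the exon counts of the host as denominator, the share of 5 to 20 kb was lowered less than that under 1 kb (+0.64, 11 of 12 lysates, adjusted p = 0.00293), and with 1 circRNA per host this pair did not pass (-0.11, adjusted p = 0.343, exact permutation tests). Over 20 kb against under 1 kb passed as -0.84 without the most abundant circRNA of each bin (adjusted p = 0.00146), as +0.48 with 1 circRNA per host (adjusted p = 0.0271) and as +0.76 with host exon counts (adjusted p = 0.0205, exact permutation tests).

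These pair differences rested on a handful of circRNAs. Without the 9 circRNAs that have no end on an exon border, the soluble share rose to 4.74% ± 0.897 under 1 kb and 5.02% ± 0.840 of 1 to 5 kb, and the log2 differences between fractions became -2.04 ± 0.24, -1.89 ± 0.45, -2.08 ± 0.46 and -1.86 ± 0.99 (SD, n = 12). None of the 6 pairs then passed, with values of -0.19 to +0.22 and a lowest adjusted p of 0.105 (exact permutation tests). In the spread over 20 kb, NaAsO2 lysate 3 stood apart at -4.67, and at -4.62 without circLRBA. The other lysates lay at -2.37 to -0.83 with circLRBA kept. The mean over 20 kb depended in part on circLRBA, which held 92 of 2625 soluble back-splice counts of that bin (3.51%) and 476 of 1154 insoluble ones (41.3%). Leaving out circLRBA too, the fraction difference over 20 kb was -2.50 ± 0.83, larger than for 1 to 5 kb by 0.60 in 11 of 12 lysates (adjusted p = 0.00586) and than for 5 to 20 kb by 0.42 in 11 of 12 (adjusted p = 0.0308, exact permutation tests). Against under 1 kb it was larger by 0.46 in 9 of 12 lysates, which did not pass (adjusted p = 0.0564, exact permutation test). Since circLRBA is in neither bin, the difference of 0.19 between 5 to 20 kb and 1 to 5 kb did not change (9 of 12 lysates, p = 0.0176, exact permutation test). Only its adjusted p moved, from 0.105 to 0.0352, through the adjustment over the 6 pairs. Without NaAsO2 lysate 3 as well, the first 2 were 0.50 (adjusted p = 0.0117) and 0.33 (adjusted p = 0.0615) and the last 0.18 (adjusted p = 0.0684, exact permutation tests). Removal of circLRBA was also chosen after seeing the data, and it was the only ring over 20 kb with higher back-splice counts in the insoluble fraction by edgeR.

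**Figure D3:**
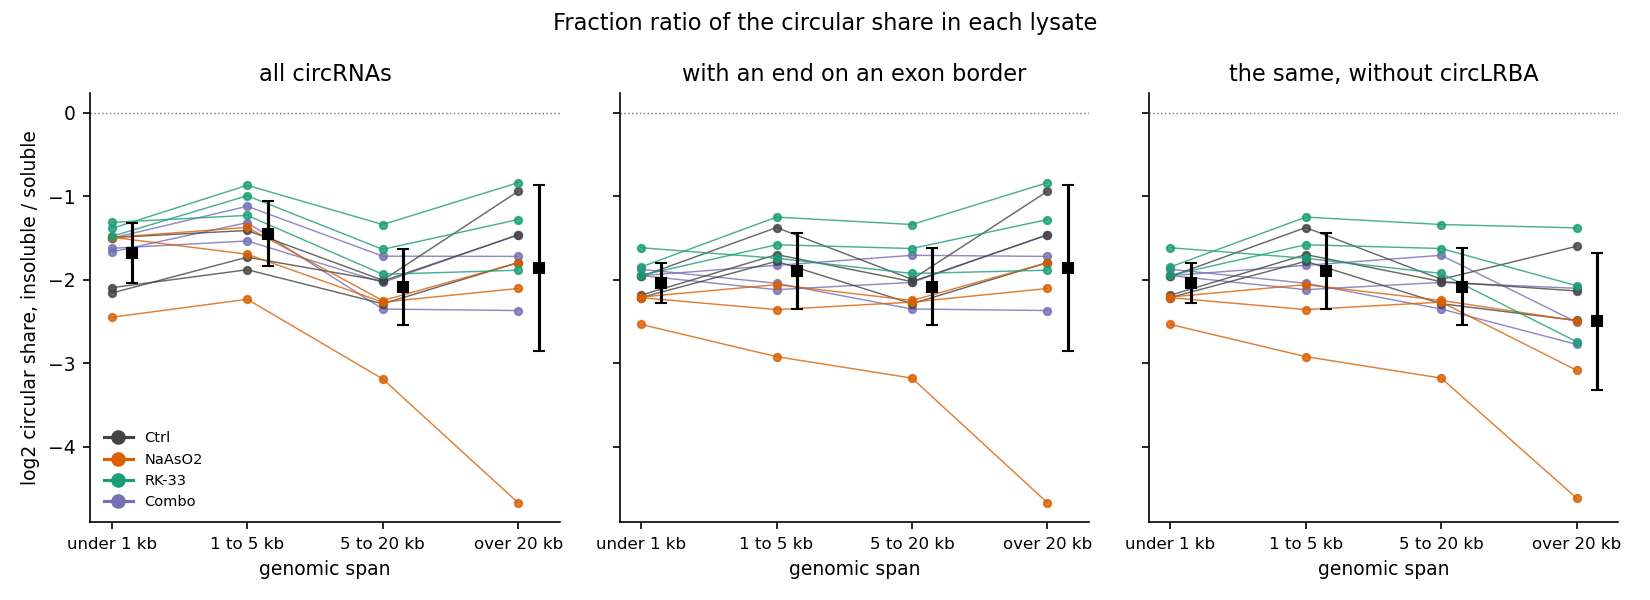
Log2 ratio of the insoluble to the soluble circular share (y axis) in each of the 12 lysates by span bin (x axis). The panels hold all circRNAs, those with at least 1 end on an exon border, and the same without circLRBA; squares are means ± SD, and the mean over 20 kb moves from -1.86 to -2.50 in the last panel.

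Counted one by one and pooled over libraries, 359 of the 368 circRNAs had a lower circular share in the insoluble fraction. By bin these were 49 of 55, 105 of 107, 114 of 115 and 91 of 91, and the median share was 3.64, 4.57, 4.52 and 4.94 times lower. No back-splice count at all was seen in the insoluble fraction for 0, 3, 5 and 5 circRNAs, and for these a floor of 3 counts over the 12 insoluble libraries was used. Among the 9 with a higher pooled share were circAHNAK, circAHNAK2, circTHBS1 and circAC126323.1, which have no end on an exon border, and circSH2B3, circMGAT5B, circZNF91 and circCDH12.

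In edgeR's quasi-likelihood test of single circRNAs, 225 of the 368 had at least 24 counts and were tested, 33, 70, 72 and 50 by bin. Back-splice counts relative to depth were lower in the insoluble fraction for 189 of the 225 (84.0%), against 81.9% of all 237 circRNAs tested. By bin these were 25, 58, 63 and 43. Of the others, 4 were higher, circAHNAK, circAHNAK2, circZNF91 and circLRBA, against 2.11% of all tested. Scaling to the back-splice counts themselves (TMM) in place of the depth left 73 lower and 9 higher. For the circular share, 186 of the 225 were lower, against 80.2% of all tested, with 25, 57, 62 and 42 by bin and fitted medians of -1.91, -2.35, -2.31 and -2.28 in log2, and 0 were higher, against 0.422% of all tested. At an unadjusted p under 0.05 the share differed for 188, and edgeR's likelihood ratio test called 193. Both the share called and the median were near those of all circRNAs tested, most of which are these same 225. Across the 225, span and the fitted log2 difference of the share had a Spearman correlation of -0.0776, and span and the pooled soluble share one of -0.0225. These describe genes of the same 24 libraries and carry no p. The linear counts of a site and its soluble share had a correlation of -0.768, and the share is calculated with these counts.

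**Figure D4:**
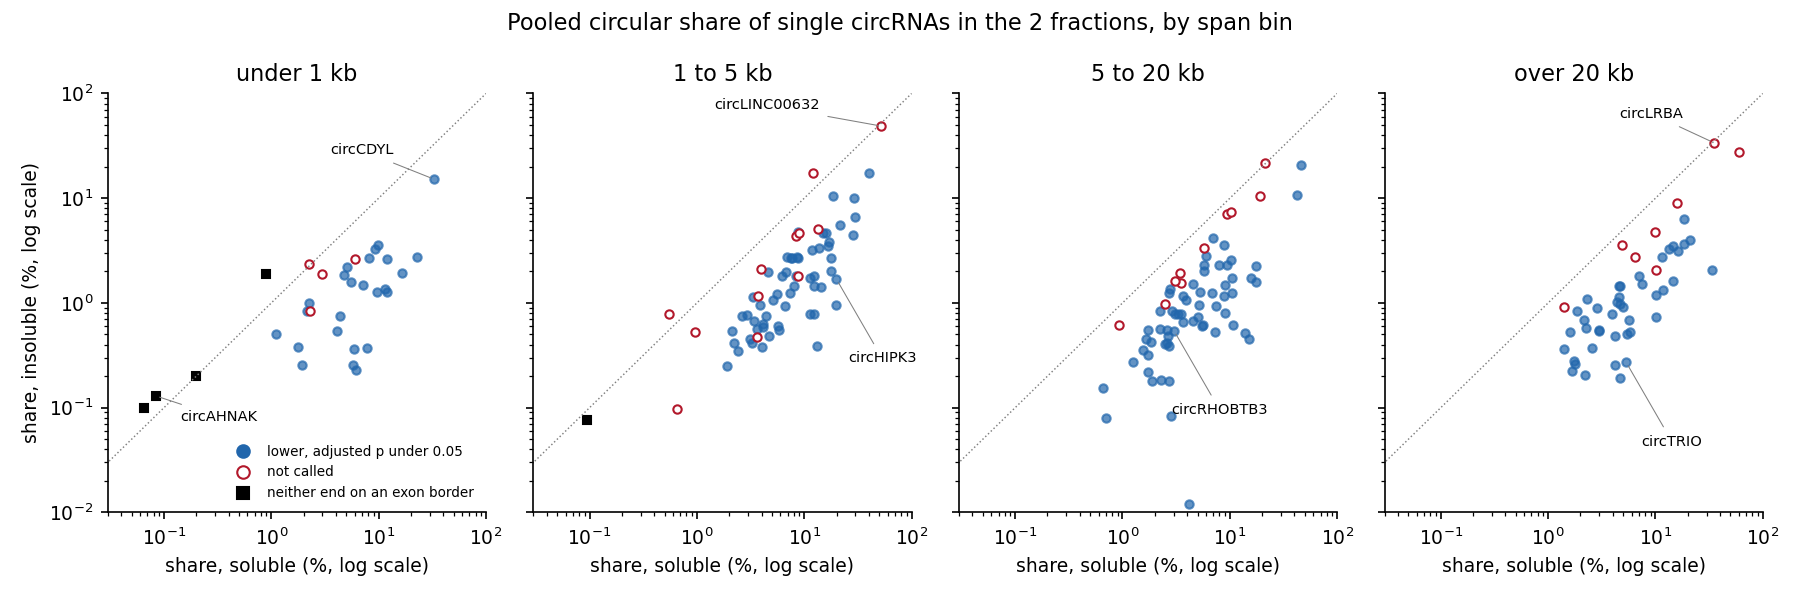
Pooled circular share in the insoluble (y axis, %, log scale) against the soluble fraction (x axis, %, log scale) of the 225 circRNAs tested, with a panel for each span bin. Blue points are lower in the insoluble fraction by edgeR, open red ones were not called, black squares have neither end on an exon border and the dotted diagonal marks equal shares; circLRBA and circLINC00632 lie near it at 35.1% and 33.9% and at 52.4% and 48.8%, and 1 circRNA with no insoluble count is drawn at the lower edge.

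Among the rings under 1 kb, circCDYL was counted 10 to 44 times per soluble library (median 20) and 2 to 12 times per insoluble library (median 7.5). Its highest insoluble count was thus within the range of the soluble libraries, but as a share of its site it went from 33.1% to 15.1%, a log2 difference of -1.48 ± 0.28 (SE, adjusted p = 4.816e-07, edgeR). The ring of SEPTIN9, a cytoskeletal GTPase gene, had 141 soluble and 32 insoluble counts and a share of 5.54% and 1.58%. For CREBBP, the histone acetyltransferase gene, the counts were 111 and 31 and the share fell from 11.4% to 1.37% (-3.19 ± 0.35, SE, adjusted p = 9.844e-18, edgeR). Its linear counts were higher in the insoluble fraction, by 1.11 in log2, so that both parts of the share moved. The ring of MYO9B, a myosin gene, fell by 3.595 in log2 share and that of ZNF609, a zinc finger gene with a well known ring, by 2.34.

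Among the rings of 1 to 5 kb, circLINC00632 had the highest circular share of the bin. It was counted 24 to 45 times per soluble library (median 30) and 0 to 24 times per insoluble library (median 14), so that the groups met only at 24. Relative to depth it was lower in the insoluble fraction (-1.44 ± 0.31 in log2, SE, adjusted p = 1.381e-05, edgeR), and so were the linear counts at its ends, by 1.23, and the share of 52.4% and 48.8% did not differ past the threshold (-0.24 ± 0.27, adjusted p = 0.413, edgeR). The single exon ring of HIPK3, a protein kinase gene, is a contrast. It was counted 5 to 27 times per soluble library (median 14.5) and 0 to 4 times per insoluble library (median 1.5), with no overlap, and its share went from 19.96% to 1.69% (-3.70 ± 0.35, SE, adjusted p = 1.486e-23, edgeR). The rings of CAMSAP1, a microtubule end binding protein gene, and ARHGAP12, a GTPase activator gene, fell by 1.87 and 2.75 in log2 share. CAMSAP1 kept the larger part of its back-splice counts, with 158 soluble and 112 insoluble, while its linear counts were higher in the insoluble fraction by 1.12. The ring of ARID1A, a SWI/SNF chromatin remodeller gene, fell by 2.87, the rings of MGA, a MYC network gene, by 3.20 and 3.38, and the shorter ring of KANSL1, a histone acetylation complex gene, by 2.12.

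Among the rings of 5 to 20 kb, circRHOBTB3 was counted 5 to 29 times per soluble library (median 13.5) and 0 to 10 times per insoluble library (median 2), with some overlap. Its site carried many linear reads, so its share was only 3.01% and 0.545% (-2.79 ± 0.36 in log2, SE, adjusted p = 5.316e-13, edgeR). The 4-exon ring of MAN1A2, a Golgi mannosidase gene, was counted 9 to 27 times per soluble library (median 12.5) and 0 to 4 times per insoluble library (median 2), with no overlap, and its share went from 15.7% to 1.74% (-3.50 ± 0.38, SE, adjusted p = 2.277e-18, edgeR). The longer ring of MAP3K4, a stress kinase gene, fell by 2.97 and that of USP10, a deubiquitinase whose protein binds the granule protein G3BP1, by 1.64.

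Over 20 kb, circLRBA went the other way in its counts. It was counted 2 to 13 times per soluble library (median 6.5) and 0 to 59 times per insoluble library (median 44). Its insoluble counts in replicates 1 to 3 were 32, 33 and 43 in Ctrl, 59, 59 and 0 in NaAsO2, 48, 35 and 45 in RK-33, and 52, 52 and 18 in Combo. All but the 0 of NaAsO2 replicate 3, the library that stood apart, exceeded the highest soluble count. Relative to depth it was higher in the insoluble fraction by 2.14 ± 0.32 in log2 (SE, adjusted p = 8.502e-10, edgeR). Its linear counts were higher by 2.22 and the LRBA mRNA by 2.34, and the circular share of 35.1% and 33.9% did not differ past the threshold (-0.10 ± 0.32, adjusted p = 0.790, edgeR). The TRIO mRNA, for a guanine nucleotide exchange factor, was also higher in the insoluble fraction, by 2.41, but the 3-exon ring of TRIO was not. It was counted 2 to 11 times per soluble library (median 6) and 0 to 4 times per insoluble library (median 1.5), with overlap at the low counts, and its share went from 5.34% to 0.272% (-4.44 ± 0.41, SE, adjusted p = 3.525e-24, edgeR). The rings of LRBA and TRIO thus took different sides although the mRNAs of both genes were about as much higher in the insoluble fraction. The longer ring of KANSL1 fell by 3.51 in log2 share, and the 5-exon ring of MAN1A2 by 3.43.

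The junctions within AHNAK and AHNAK2 had high insoluble counts too. circAHNAK was counted 2 times over the soluble and 51 times over the insoluble libraries, a ratio per depth of 21.4 (95% exact interval 5.64 to 182), and circAHNAK2 1 and 43 times, a ratio of 36.1 (6.15 to 1460). The linear counts at these sites were higher by 3.78 and 4.14 in log2, and the shares of 0.0838% and 0.130% and of 0.901% and 1.88% did not differ past the threshold. Of the 5 circRNAs with no end on an exon border that were tested, 0 had a changed share by edgeR.

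The next question was whether genes that give several rings differ from genes that give 1. A single circRNA came from 253 of the 294 hosts, and 41 hosts gave 115 circRNAs, of which 27 hosts gave 2 and 14 gave 3 or more. Longer rings came more often from hosts with several: 14.5% under 1 kb, 24.3% of 1 to 5 kb, 26.1% of 5 to 20 kb and 56.0% over 20 kb, and the median span was 4857 bases for the first class and 15721 for the second. In 29 of the 41 hosts, circRNAs shared a start or an end, so they draw on a common splice site and are not independent of each other. The soluble share was 3.42% ± 0.48 for hosts with 1 and 2.45% ± 0.48 for hosts with several, and the insoluble share 1.05% ± 0.23 and 0.676% ± 0.19 (SD, n = 12). These shares include the 9 circRNAs with no end on an exon border, which held 26.3% of all linear but 1.63% of all back-splice counts. Whether the classes differ in share without those 9 was not tested. The log2 difference between fractions was -1.73 ± 0.48 and -1.88 ± 0.60, in 12 of 12 lysates each, and the classes differed from each other by -0.16 ± 0.39 (7 of 12 lysates, p = 0.192, exact sign-flip permutation test). Without the most abundant circRNA of each class they differed by +0.093 ± 0.38 (7 of 12 lysates, p = 0.411, exact permutation test). With the median over circRNAs they differed by -0.52 ± 0.25 (12 of 12, p = 0.000488, exact permutation test). Without the 9 circRNAs with no end on an exon border the classes differed by -0.74 ± 0.25 in 12 of 12 lysates, and without circLRBA as well by -0.52 ± 0.30 in 12 of 12 (p = 0.000488 for both, exact permutation test). Both of these removals were chosen after seeing the data. In edgeR's test, the share fell for 121 of 152 circRNAs of hosts with 1 and 65 of 73 of hosts with several, against 80.2% of all tested, with fitted medians of -2.11 and -2.64.

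Within hosts with many rings, counts followed the span in more than one way. The 5 rings of MAN1A2 share a start at chr1:117402186 and end after 2, 3, 4, 5 and 7 exons, with spans of 3460, 12646, 18464, 40140 and 64242 bases. They had 26, 131, 198, 149 and 18 back-splice counts, and soluble shares of 1.90%, 9.003%, 15.7%, 14.6% and 3.07%, so the rings of intermediate length were the most frequent. The insoluble shares followed the same order, at 0.250%, 0.806%, 1.74%, 1.62% and 0.277%. In NSD2, a histone methyltransferase gene, 5 rings with a common start and spans of 3753 to 39153 bases had 43, 43, 31, 39 and 21 counts. Their insoluble shares were 0.345%, 0.386%, 0.226%, 0.691% and 0.237%. In PTK2, the focal adhesion kinase gene, 4 rings with a common end and spans of 11299, 26458, 44510 and 60298 bases had 121, 88, 88 and 23 counts. Their soluble shares were 5.80%, 4.59%, 5.73% and 1.35%. Their insoluble shares, on 37, 19, 11 and 5 counts, were 2.32%, 1.15%, 0.692% and 0.298%. In TBCD, a tubulin folding gene, 4 rings with a common end and spans of 8385 to 41566 bases had 25, 65, 63 and 29 counts. Their insoluble shares were 0.425%, 0.613%, 0.984% and 0.204%. MPP6 gave 8 rings, the most of any host, and the 2 whose starts are 3 bases apart had 186 and 118 counts. Their shares fell by 1.72 and 3.05 in log2, and a further ring with the same end, circMPP6_48609, had 51 soluble and 2 insoluble counts and fell by 3.33 (adjusted p = 2.176e-06, edgeR).

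**Figure D5:**
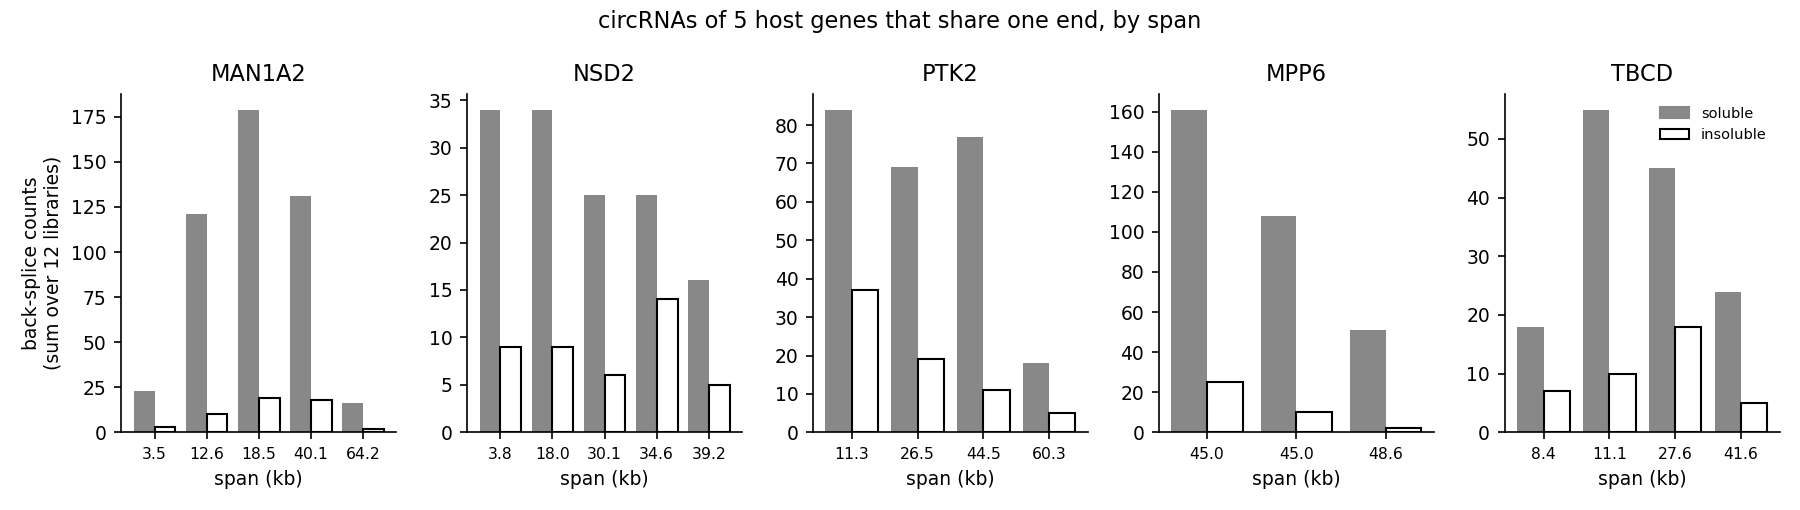
Back-splice counts (y axis) of circRNAs that share a start or an end in MAN1A2, NSD2, PTK2, MPP6 and TBCD, by span (x axis). Bars are sums over the 12 libraries of each fraction; in MAN1A2 the ring of 18464 bases has the most counts, 179 soluble and 19 insoluble, and the longest has 16 and 2.

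The fourth question was whether NaAsO2 or RK-33 moved circRNAs of some spans and not of others. The soluble share averaged 1.76%, 2.00%, 1.72% and 1.56% in Ctrl, NaAsO2, RK-33 and Combo under 1 kb, 3.14%, 3.26%, 2.80% and 2.46% of 1 to 5 kb, 3.32%, 4.45%, 3.46% and 3.46% of 5 to 20 kb, and 3.87%, 5.16%, 3.41% and 3.77% over 20 kb. The arsenite effect, taken with and without RK-33 together, was +0.29 in log2 on the soluble share over 20 kb (p = 0.015, adjusted p = 0.154, exact permutation test within RK-33 strata) and +0.02, -0.06 and +0.21 in the shorter bins. On the ratio of insoluble to soluble share it was -0.05, -0.19, -0.43 and -0.99, and the last value was -0.53 without the NaAsO2 insoluble replicate 3. The RK-33 effect on that ratio was +0.37, +0.54, +0.50 and +0.54, and on the soluble share -0.20, -0.29, -0.15 and -0.31. The effect on the ratio leans on NaAsO2 lysate 3, which had the lowest log2 ratio of the NaAsO2 lysates in every bin. Over 20 kb that ratio was -4.67, against -2.10 and -1.79 in NaAsO2 lysates 1 and 2 and -1.46, -1.72 and -2.37 in Combo. Under 1 kb it was -2.45, against -1.49 and -1.49 in NaAsO2 lysates 1 and 2 and -1.62, -1.50 and -1.66 in Combo. None of the 24 effects passed the threshold (lowest adjusted p = 0.154).

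Without the 9 circRNAs with no end on an exon border, the soluble share averaged 4.31%, 5.86%, 4.64% and 4.16% in Ctrl, NaAsO2, RK-33 and Combo under 1 kb and 4.45%, 5.99%, 4.75% and 4.88% of 1 to 5 kb, and 3 of the 24 effects passed. The arsenite effect of 1 to 5 kb was -0.41 on the insoluble share and -0.65 on the ratio, and the RK-33 effect under 1 kb was +0.35 on the ratio (adjusted p = 0.04 each, from p = 0.005, the smallest that the exact permutation test allows). With NaAsO2 lysate 3 left out too, they were -0.33, -0.53 and +0.30 (adjusted p = 0.04 each, exact permutation test). Whether an effect differed between bins was not tested. Comparisons of 3 against 3 libraries cannot give an exact permutation p below 0.1 and none passed. The largest in the soluble fraction were +0.42 and +0.44 for NaAsO2 against Ctrl of 5 to 20 kb and over 20 kb, and -0.36, -0.42, -0.37 and -0.45 for Combo against NaAsO2 from the shortest to the longest bin. In the insoluble fraction RK-33 against Ctrl gave +0.49, +0.49, +0.53 and -0.10, the first 3 at the smallest possible p of 0.1 (exact permutation test), and NaAsO2 against Ctrl gave -1.02 over 20 kb. The last value leans on NaAsO2 replicate 3. Its log2 ratio of insoluble to soluble share over 20 kb was -4.67, against -2.10 and -1.79 in replicates 1 and 2.

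The fraction difference was present within each treatment. The share of single circRNAs was lower in the insoluble fraction for 59 of the 225 in Ctrl, 127 in NaAsO2, 54 in RK-33 and 100 in Combo (edgeR), against 24.9%, 54.0%, 23.6% and 43.0% of all 237 tested. With the lysate as a block the numbers were 30, 96, 26 and 72. They come from 3 lysates each and the difference between them was not tested. For the effects of NaAsO2 and of RK-33 in each fraction, edgeR called 0 of the 225 in back-splice counts and in the share, against 0.0% of all tested. DESeq2, run on back-splice counts alone, also called 0. With so few counts, 0 called does not exclude changes of 2-fold. In simulated counts edgeR recovered 2-fold fraction differences for 10 of 40 circRNAs in back-splice counts and 4 of 40 in the share. At an unadjusted p under 0.05, edgeR gave 17 and 14 circRNAs for arsenite and 16 and 17 for RK-33 in soluble and insoluble back-splice counts. In the share it gave 28 and 11 for arsenite and 17 and 19 for RK-33. The likelihood ratio test of edgeR called 3 shares for arsenite in the soluble fraction and 0 for the other effects. In the insoluble fraction, 40 and 37 circRNAs had a group without counts on each side of the arsenite and of the RK-33 contrast.

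The mRNAs of 29 of 30 listed factors that make, export, bind or degrade circRNAs were measured well enough to test, over 17666 genes. In the insoluble against the soluble fraction 13 were higher and 11 lower, against 38.5% and 38.2% of all genes tested. The 2 listed inhibitors of back-splicing were both higher, ADAR by 1.12 and DHX9 by 0.94 in log2. Of the 6 decay factors 5 were higher, among them UPF1, the nonsense-mediated decay helicase, by 1.46 and AGO2, an effector of microRNAs, by 0.97. Of 8 export factors 4 were higher and 4 lower, and the lower ones were RAN by 1.46, NXT1 by 1.17, DDX39A by 0.87 and DDX39B by 0.67. Of 11 biogenesis factors 2 were higher and 5 lower, with RBM20 at +1.09 and ILF2 at -1.05. DDX3X, whose protein is the target of RK-33, did not differ past the threshold (+0.03, adjusted p = 0.781).

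Arsenite raised 6 and lowered 1 of the 29 in the soluble fraction, against 6.21% and 6.86% of all genes, with DHX9 at +0.82 and NXF1, the mRNA export receptor, at +0.44. In the insoluble fraction 4 were higher and 4 lower, against 20.1% and 20.4%. RK-33 raised 2, DHX9 by 0.42 and NXF1 by 0.44, and lowered 0 of them in the soluble fraction, against 4.53% and 4.38%. In the insoluble fraction 2 were higher and 7 lower, against 7.83% and 9.0%, and 6 of the 7 were biogenesis factors, among them HNRNPM at -0.64 and HNRNPL at -0.39. The numbers for arsenite moved with single libraries: the higher ones ranged from 3 to 10 in the soluble and from 4 to 11 in the insoluble fraction, with the most without NaAsO2 insoluble replicate 3 and replicate 1. For RK-33 in the insoluble fraction the higher ones ranged from 1 to 4. A fit with the lysate as a block cannot test arsenite or RK-33, since each lysate had a single treatment. In that fit these effects are read at replicate 1 of each treatment, so its numbers are not given. The numbers above are edgeR calls on exon counts, and counts of mRNA say nothing of the proteins.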

How the data were processed

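The authors aligned paired reads of directional, rRNA-depleted libraries to GRCh38.p13 with STAR 2.7.2b, handled alignments with SAMtools 1.2, and found circRNAs from chimeric reads with DCC. The deposited tables hold raw counts: reads across each back-splice junction, linear reads at the same sites, and fragments on exons and introns from featureCounts 1.5.3. These fragments were taken for each gene without strand, so antisense partners cannot be told apart. The linear reads need not be spliced: circHIST1H1E and circAHNAK, with neither end on an exon border, had 44650 and 41654 of them. How much unspliced RNA adds to the linear counts was not tested. The spans and junction ends are those of the authors' table, and 291 of 294 hosts matched a gene. Rows split by a spreadsheet (1 exon gene and 21 intron genes) were rejoined, and 0 columns belonged to other samples. Exon structure and sequences were read from the same assembly with GENCODE release 44, while the authors counted genes with release 40, and which ends lie on an exon border depends on that annotation.

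Counts were summed by bin and library, and the circular share took no pseudocount except 0.5 on the log2 scale. The depth of 10968059 to 19799530 exon plus intron counts gave 110 to 1412 back-splice counts per library, so single circRNAs are measured with few counts. Fractions were compared by exact two-sided sign-flip permutation tests over 12 lysates, arsenite and RK-33 by exact permutation within strata of the other agent (400 arrangements), and 3 against 3 libraries by exact permutation, with Benjamini-Hochberg adjustment over 4 bins, 6 pairs, 24 effects and 24 comparisons. Both fractions came from 1 lysate per the methods, which is why they are paired; over single circRNAs, deviations of the 2 fractions of a lysate from their group means had correlations of -0.286 to 0.139, over 0.1 in 2 of 12. Single circRNAs with at least 24 counts, scaled to exon plus intron counts, and genes with a mean CPM of at least 1, scaled with TMM, were fitted in 8 groups with edgeR's quasi-likelihood test (threshold: adjusted p of 0.05 over all rows tested); the share test took the linear counts of the site in the same fit. The edgeR fits were tried on simulated counts with known changes between the fractions. Of 40 changed circRNAs, 10 were recovered at 2-fold and 33 at 4-fold in back-splice counts. For the circular share, 4 and 35 of 40 were recovered, and for genes 200 of 200 at 2-fold.

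The members, lists and tests were chosen with earlier results of these data known. Named circRNAs were the 3 with the most counts and the 2 with the smallest adjusted p of the share test in each direction per bin, the shortest and longest, the 2 nearest each bin border, those of ARID1A, MPP6, MAN1A2, CREBBP, MGA, MAP3K4, ZNF609 and KANSL1, and those of the 4 hosts with the most circRNAs (5 with a tie), beside a list of 30 factors; not all are printed, and some are not reported here. A number after a name is the span. Software: R 4.3.3, edgeR 4.0.16, DESeq2 1.42.0, Python 3.11.15, numpy 2.4.6, pandas 2.3.3, scipy 1.17.1, pysam 0.24.0 and matplotlib 3.10.9. Alternatives covered other filters, denominators, normalizations, tools, a replicate block, single lysates or libraries left out, and, chosen after seeing the data, the removal of the 9 circRNAs with no end on an exon border, of circLRBA and of NaAsO2 lysate 3.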

Additional observations from a re-analysis of the deposited data

Results flagged for a closer look

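For the ring of USP10 (5365 bases, 2 exons), the effect of RK-33 differed between the fractions by edgeR's quasi-likelihood test of the interaction, by 2.55 in log2 back-splice counts (SE 0.684, adjusted p = 0.0471) and by 2.61 in log2 circular share (SE 0.675, adjusted p = 0.0269). It was the only one of the 225 circRNAs called, against 0.422% of all tested. In the soluble fraction, the share in replicates 1 to 3 was 10.3%, 16.5% and 15.2% in Ctrl, 9.91%, 8.85% and 8.76% in NaAsO2, 6.94%, 6.47% and 13.1% in RK-33, and 6.14%, 3.25% and 3.604% in Combo. In the insoluble fraction it was 1.05%, 1.60% and 0.840% in Ctrl, 2.17%, 2.34% and 0% in NaAsO2, 6.90%, 7.44% and 4.97% in RK-33, and 4.83%, 4.35% and 1.84% in Combo. The insoluble libraries with RK-33 alone lay above all insoluble Ctrl and NaAsO2 libraries, on 7 to 12 counts of circUSP10 against 0 to 4. With the lysate as a replicate block, 0 circRNAs were called for this interaction, in the back-splice counts or in the share, with 9 at an unadjusted p under 0.05 in each. DESeq2 called 0 for the back-splice counts, with 8 at an unadjusted p under 0.05, and edgeR's likelihood ratio test called 5 for the share.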

How the results depend on the processing

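With each setting run, the circular share and the back-splice counts per depth were lower in the insoluble fraction in all 4 bins. With each lysate (both of its libraries) left out, the share differed by -1.71 to -1.61, -1.50 to -1.38, -2.15 to -1.98 and -1.95 to -1.60 in log2 from the shortest to the longest bin. What depended on the processing were the differences between bins. They are given in log2, and unless a value says otherwise the cause was not tested.

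Without the most abundant circRNA of each bin or class, the bin over 20 kb differed by -0.84 from under 1 kb, by -1.01 from 1 to 5 kb and by -0.42 from 5 to 20 kb, the host classes by +0.093, and in the insoluble fraction of 1 to 5 kb NaAsO2 against Ctrl became +0.060 and Combo against NaAsO2 -0.038. With 1 circRNA per host, 5 to 20 kb differed from under 1 kb by -0.11 and over 20 kb from the 3 shorter bins by +0.48, +0.036 and +0.59. With at least 24 counts per circRNA, 5 to 20 kb and over 20 kb differed from under 1 kb by +0.037 and +0.34. With the median over circRNAs, the pairs came to -0.043 (1 to 5 kb minus under 1 kb), +0.013 (5 to 20 kb minus under 1 kb), +0.056 (5 to 20 kb minus 1 to 5 kb) and -0.11 (over 20 kb minus 5 to 20 kb), and the host classes differed by -0.52. With the exon counts of the host as denominator, 5 to 20 kb and over 20 kb differed from under 1 kb by +0.64 and +0.76, both past the threshold, and 5 to 20 kb from 1 to 5 kb by -0.13.

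Chosen after seeing the data, the removal of the 9 circRNAs with no end on an exon border gave +0.15 (1 to 5 kb minus under 1 kb), -0.039 (5 to 20 kb minus under 1 kb), +0.18 (over 20 kb minus under 1 kb), -0.19 (5 to 20 kb minus 1 to 5 kb) and +0.036 (over 20 kb minus 1 to 5 kb). It gave -0.74 for the host classes, for arsenite of 1 to 5 kb +0.24 soluble, -0.41 insoluble and -0.65 in the ratio, for RK-33 under 1 kb +0.35 in the ratio, and for RK-33 against Ctrl in the soluble fraction +0.092 under 1 kb and +0.10 of 1 to 5 kb. Without circLRBA as well, over 20 kb differed from 1 to 5 kb by -0.60 and from 5 to 20 kb by -0.42, and the host classes by -0.52. With NaAsO2 lysate 3 left out too, the first removal gave -0.33, -0.53, +0.30 and -0.71 for the 2 arsenite values, the RK-33 value and the host classes, and the second -0.18 (5 to 20 kb minus 1 to 5 kb), -0.50, -0.33 and -0.47.

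Linear counts under 1 kb, of 1 to 5 kb and of 5 to 20 kb differed between fractions by +0.18, -0.15 and +0.17 per exon counts and by +0.21, -0.13 and +0.19 with TMM. With back-splice CPM in place of the share, arsenite under 1 kb was +0.16 insoluble and +0.020 in the ratio, and +0.20 soluble of 1 to 5 kb. RK-33 against Ctrl was +0.15, +0.051 and -0.067 in the soluble fraction of the 3 shorter bins and +0.063 in the insoluble fraction over 20 kb, and Combo against NaAsO2 +0.022 in the insoluble fraction under 1 kb.

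Without the replicate block, that is with the pairing of fractions by lysate ignored, the difference of -0.41 between over 20 kb and 1 to 5 kb passed the threshold (adjusted p = 0.0336, exact permutation test). Fitted with a replicate block for the lysate, the share was lower in the insoluble fraction for 177 circRNAs in place of 186 (edgeR). Such a block cannot test arsenite or RK-33, whose effects it reads at replicate 1 of each treatment, so no factor mRNA numbers are given for it.

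For single circRNAs, back-splice counts were called lower and higher for 73 and 9 with TMM on back-splice counts, 97 and 7 with DESeq2 size factors and 72 and 2 at a minimum of 48 counts, and lower for 285 with no filter, and at 48 counts the share was called lower for 73 and RK-33 raised 1 in the insoluble fraction. For factor mRNAs and arsenite in the soluble fraction, 2 were higher and 0 lower with no filter and 0 lower with DESeq2. For arsenite in the insoluble fraction, 9 were higher with DESeq2 size factors, 2 with library size alone, 8 with no filter (1 lower) and 10 with DESeq2. For RK-33, DESeq2 lowered 2 in the soluble fraction, and in the insoluble fraction 1 was higher with DESeq2 size factors and 1 with no filter.

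Leaving out 1 lysate (both of its libraries) each, over 20 kb differed by -0.26 to 0.0052 from under 1 kb, by -0.49 to -0.23 from 1 to 5 kb and by 0.15 to 0.38 from 5 to 20 kb. Linear counts differed by -0.060 to 0.011 under 1 kb and by -0.070 to 0.027 of 5 to 20 kb. The ranges that follow are from leaving out 1 library each. Arsenite under 1 kb ranged over -0.043 to 0.057 soluble, -0.14 to 0.11 insoluble and -0.13 to 0.11 in the ratio, and RK-33 over 20 kb insoluble over -0.19 to 0.48. NaAsO2 against Ctrl ranged over -0.054 to 0.19 (soluble) and -0.18 to 0.14 (insoluble) of 1 to 5 kb and -0.16 to 0.18 (insoluble) of 5 to 20 kb. RK-33 against Ctrl ranged over -0.10 to 0.021 (soluble) under 1 kb and -0.25 to 0.10 (insoluble) over 20 kb. Combo against NaAsO2, insoluble, ranged over -0.44 to 0.063, -0.14 to 0.18, -0.058 to 0.44 and -0.28 to 1.07 from the shortest to the longest bin. Counts ranged over 0 to 1 for shares called higher and for RK-33 insoluble higher. For factor mRNAs they were 3 to 10 higher and 0 to 2 lower (arsenite soluble), 4 to 11 higher (arsenite insoluble), 0 to 4 lower (RK-33 soluble) and 1 to 4 higher (RK-33 insoluble). The log2 share ranged over -0.22 to 0.013 for circLRBA and over -0.15 to 0.61 for circAHNAK and circAHNAK2.

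The few counts per circRNA, 12 to 568 over all 24 libraries, limit these data.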
